A study of Mus musculus with 6 samples.

Results

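Axon guidance ligands and receptors were examined as a set of 68 protein-coding genes, among 48709 gene IDs counted in embryonic mouse neocortex. They were matched by symbol with no measured value in the rule, but the rule was set with earlier results of these data known. The set holds 20 semaphorins with 9 plexins and 2 neuropilins, and 5 A-type and 3 B-type ephrins with 9 EphA and 5 EphB receptors. It also holds 3 Slits with 4 Robo receptors, and 3 netrins with 5 receptors, Dcc and the Unc5 genes. By their usual roles 34 are ligands and 34 receptors, although ephrins and transmembrane semaphorins can also receive signals. The mutant group, named Rest_het, was 3 embryos heterozygous for a Rest allele with exon 4 deleted. The other group was 3 wild-type (WT) embryos. All 6 were C57BL/6 embryos at E15.5, and RNA came from whole dissected neocortex. The study concerns alternative splicing of Rest, and the comparison asked which cortical transcripts differ when 1 of the alleles lacks that exon.

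Growing axons read cues that attract or repel their tips. Ephrins act on Eph receptors where cells touch, semaphorins act through plexins and often a neuropilin, Slits repel through Robo receptors, and netrin-1 attracts through Dcc or repels where Unc5 receptors take part. In the embryonic cortex these families steer callosal, corticofugal and thalamocortical axons and also guide migrating neurons. Rest encodes a zinc-finger protein that silences neuronal genes through a long DNA element, and an intact allele remained in every Rest_het embryo.

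Promoter sequence was at hand for 58 of the 68 genes, with 74 start sites among 32851 in RefSeq's GRCm38.p6 annotation, each taken as the 250 bases before the start. These windows were GC-rich, with a median GC content of 64.4% in the members and 52.4% over all promoters. Among the members the GC content ranged from 40.8% at Sema3a to 84.0% at Epha8. The promoters of 3 genes are shown, 5′ to 3′. The Efna5 window (chr17:62881318-62881567, minus strand) belongs to the member with the highest level per length. The Robo1 window (chr16:72662899-72663148, plus strand) belongs to the abundant member that varied most between libraries, and its start lies 355 kb inside the Robo1 gene of the GENCODE annotation. The Robo2 window (chr16:75447294-75447543, minus strand) is the single member promoter that held the core of the Rest-binding element, and its start lies 1035 kb upstream of the GENCODE start of Robo2. Capitals mark CG dinucleotides in the first and second sequence and the element core in the third.
Efna5: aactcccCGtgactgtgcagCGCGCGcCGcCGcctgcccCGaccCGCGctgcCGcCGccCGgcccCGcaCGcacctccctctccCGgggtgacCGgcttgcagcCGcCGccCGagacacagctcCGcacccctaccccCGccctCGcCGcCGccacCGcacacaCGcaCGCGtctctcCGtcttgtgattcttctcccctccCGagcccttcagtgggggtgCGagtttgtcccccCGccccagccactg
Robo1: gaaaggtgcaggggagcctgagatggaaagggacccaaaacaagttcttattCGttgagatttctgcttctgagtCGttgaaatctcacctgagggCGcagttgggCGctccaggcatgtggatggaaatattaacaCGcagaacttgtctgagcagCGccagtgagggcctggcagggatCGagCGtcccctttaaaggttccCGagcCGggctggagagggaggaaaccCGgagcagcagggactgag
Robo2: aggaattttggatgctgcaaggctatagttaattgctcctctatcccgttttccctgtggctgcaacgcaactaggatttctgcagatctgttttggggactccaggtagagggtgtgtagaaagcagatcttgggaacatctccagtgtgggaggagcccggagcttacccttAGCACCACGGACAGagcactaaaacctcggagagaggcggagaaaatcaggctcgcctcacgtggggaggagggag

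The Efna5 window held 32 CG dinucleotides and the Robo1 window 11. The core of the Rest-binding element, which joins the left and right parts of the known site across 2 free positions, was searched on both strands. It occurred in 1 of the 74 member promoters, where AGCACCACGGACAG began 76 bases before the Robo2 start, and in 15 of all 32851 promoters (0.0457%). The letters TATAAA, searched on both strands, occurred in 2 of the 74 member promoters, those of Efnb2 and Slit2, and in 12.4% of all promoters. The letters CAGCTG, an E-box read by proneural factors, occurred in 12 of the 74 member promoters and in 13.0% of all promoters. These are matches of letters only, in windows that cover a small stretch before each start.

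The 6 libraries held 17835117 to 18426652 gene reads in Rest_het and 19996943 to 20753653 in WT. The members took 0.246 to 0.270% of gene reads in Rest_het and 0.240 to 0.274% in WT. Levels are given on the CPM scale, each count divided by its library's total after scaling by edgeR's TMM factors. The replicate 1 library of each group stood apart: the chi-square per gene was 80.0 and 83.1 between it and the other Rest_het libraries and 26.5 between those others, and the WT values were 104, 120 and 24.1. Log2 fold changes printed for single genes that moved by over 1.5 times without both of these libraries are given both ways. Rest itself measured 16.7, 19.0 and 18.6 CPM in Rest_het and 21.0, 19.7 and 21.1 CPM in WT, which gave a log2 fold change of -0.19 (adjusted p = 0.49 by edgeR), or -0.12 without both replicate 1 libraries. That total runs over all exons and does not check the deletion or the genotype labels. Reads assigned to LacZ occurred in every WT library and none in Rest_het, and Cre-ERT2 reads occurred in every Rest_het library and none in WT, so genotype at Rest and carriage of a transgene cannot be told apart. The mice are named as separate animals but nothing given says whether they shared a litter, and the p-values measure the spread between these 6 animals.

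No member passed the test between the genotypes. Of 58 members with enough reads to be tested, 0 reached an edgeR adjusted p under 0.05, against 0.123% of the 15385 genes tested (19 genes: 10 higher, 0.065%, and 9 lower, 0.0585%). The lowest edgeR adjusted p of any member was 0.32. With each of the 6 libraries left out in turn the count over all genes was 12 (without WT replicate 1), 13 (without WT replicate 3), 17 (without Rest_het replicate 1), 20 (without Rest_het replicate 2), 32 (without Rest_het replicate 3) or 35 (without WT replicate 2), and that of members stayed at 0. DESeq2 and a run of edgeR with no filter on low counts each called 1 member, Efna5, against 0.822% and 0.372% of the genes they could call. An unadjusted edgeR p under 0.05 was found for 12 members (20.7% of those tested), against 11.7% of all genes. Of these, 6 measured higher in Rest_het (Efna5, Sema6a, Sema3f, Slit2, Nrp2 and Ephb3) and 6 lower (Efnb2, Ntn4, Epha3, Plxna4, Plxna2 and Unc5c), against 6.98% of all genes higher and 4.72% lower. All 12 kept their direction in each of the 13 alternative analyses, which reuse the libraries from which the 12 were picked. The count of 12 became 6 without Rest_het replicate 2, where the share over all genes was 8.02%. Without both replicate 1 libraries 7 members had an unadjusted p under 0.05, against 6.32% of all genes, and 5 of these were among the 12, namely Efna5, Sema6a, Nrp2, Plxna4 and Plxna2.

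The 3 Rest_het values lay entirely above the WT values in 8 tested members and entirely below them in 5, together 22.4% of those tested, against 10.4% and 8.94% of all genes and 19.3% together. The median log2 fold change of the tested members was 0.03, beside 0.01 over all genes. It lay above 0 in 33 members and below 0 in 25, beside 50.9% of all genes above 0. Among the 31 tested ligands 4 measured higher and 2 lower at an unadjusted p under 0.05, together 19.4%, against 11.7% of all genes. Among the 27 tested receptors 2 measured higher and 4 lower, together 22.2%. The shares of members at an unadjusted p and without overlap were read beside those of all genes and were not tested as sets.

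**Figure D1:**
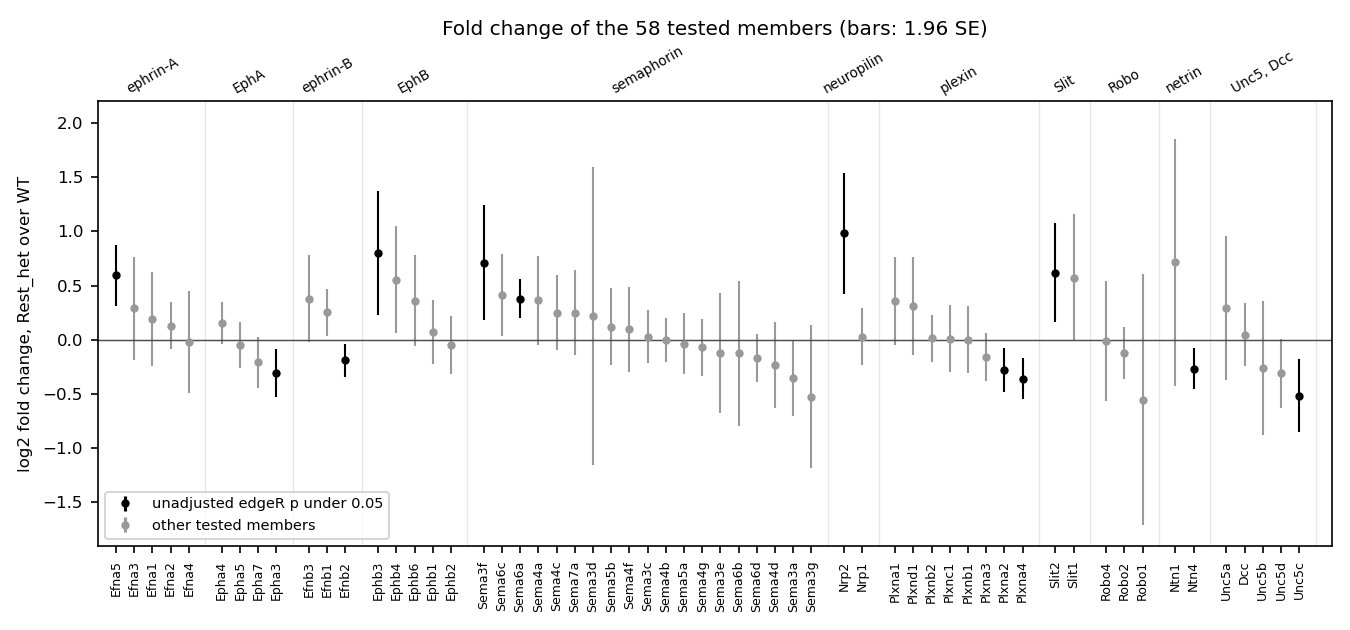
Log2 fold change of each tested member (vertical axis, Rest_het over WT), grouped by family, with bars for the normal 95% interval; black marks an unadjusted edgeR p under 0.05. The black points divide into 6 above and 6 below 0, and Robo1, Ntn1 and Sema3d have the widest bars on the plot.

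The precision set how far these values can be read. The normal 95% interval of the fold stayed within 1.5-fold in either direction for 29 of the 58 tested members and reached past it for the other 29. Of the 26 tested members with a mean of at least 20 CPM it stayed within for 22. These normal intervals are narrower than the edgeR test implies, so fewer members would stay within 1.5-fold or as many. That of Efnb1 ran from 1.02 to 1.39, clear of 1, at an unadjusted edgeR p of 0.053. The 10 members below the filter on low counts were Epha1, Epha2, Epha6, Epha8, Epha10, Ntn5, Plxnb3, Robo3, Sema3b and Slit3, and none of them reached more than 0.942 CPM in a library. All 68 had at least 1 read in some library. A count of 0 in a library allows up to 3 reads, or 0.163 to 0.168 CPM in Rest_het and 0.145 to 0.150 CPM in WT before TMM scaling, by counting error only.

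Levels per length, in CPM per kilobase of exon and averaged over all 6 libraries, spanned the families widely. Efna5 led with 75.0 CPM per kb and Efnb2 followed with 66.5 CPM per kb. The leading receptors were Epha4 with 19.2 CPM per kb and Nrp1 with 16.7 CPM per kb. Sema4b led the semaphorins with 17.4 CPM per kb. Robo1 led its family with 7.21 CPM per kb, Unc5d the Unc5 and Dcc receptors with 6.90, Plxna4 the plexins with 6.72 and Ntn4 the netrins with 6.46 CPM per kb. Ephb1 led the EphB receptors with 3.46 CPM per kb, and the highest Slit was Slit1 with 0.424 CPM per kb. These orders rest on the merged length of all annotated exons, 5.92 kb for Slit1 and 25.4 kb for Slit2. In CPM without length Slit2 stood above Slit1, at means of 7.21 and 3.00 in Rest_het and 4.69 and 2.02 in WT. The merged length was 14.1 kb for Plxna4 and 7.72 kb for Plxnb2. Among the plexins Plxna4 and Plxnb2 were within their spread in Rest_het, at 5.89 ± 0.607 and 5.22 ± 0.528 CPM per kb, whereas in WT Plxna4 stood above Plxnb2, at 7.55 ± 0.384 and 5.16 ± 0.492 CPM per kb (SD, n = 3). The lead of Robo1 over Robo2 was within the spread of Robo1 in each group. Their levels were 5.85 ± 4.60 and 4.05 ± 0.699 CPM per kb in Rest_het. In WT they were 8.57 ± 4.71 and 4.40 ± 0.0741 CPM per kb.

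**Figure D2:**
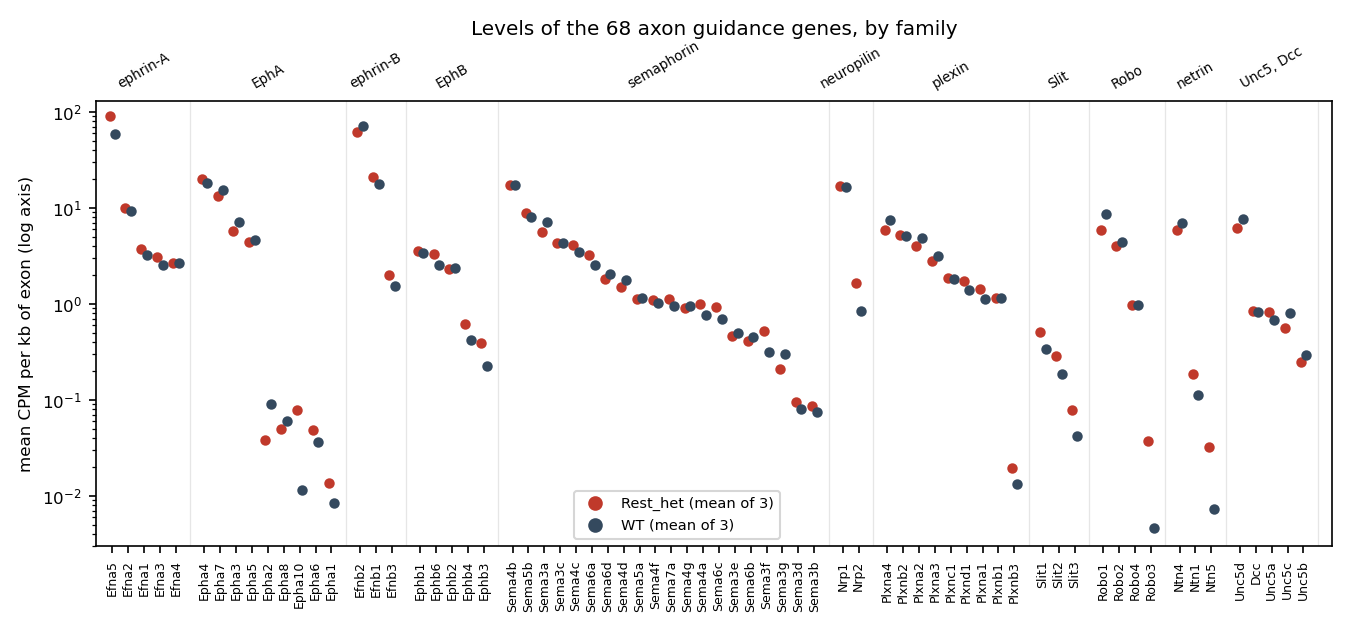
Mean level of each of the 68 genes (vertical axis, CPM per kilobase of exon, log scale) in Rest_het and WT libraries (n = 3 each), ordered within each family by the mean over all 6. Efna5 and Efnb2 stand at the top with 75.0 and 66.5 CPM per kb over all libraries, and the 5 lowest EphA receptors lie far below the other 4.

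Among the ligands, the A-type ephrins are anchored to the membrane by a lipid and bind mainly EphA receptors. Efna5, which repels axons that carry EphA receptors and helps to place thalamocortical arbors, measured 447, 344 and 301 CPM in Rest_het and 256, 221 and 245 CPM in WT. All Rest_het libraries lay above all WT libraries, and Rest_het replicate 1 was the highest. The level was 1.51-fold that of WT, with a normal 95% interval from 1.24 to 1.84, a log2 fold change of 0.60 (SE 0.14) and an edgeR adjusted p of 0.32. Over the alternatives the adjusted p ranged from 0.029 to 0.63, and the lower end came from DESeq2 and from edgeR with no filter (0.029 in each). Leaving out single libraries gave log2 fold changes from 0.42, without Rest_het replicate 1, to 0.72. The other A-type ephrins, Efna1 to Efna4, had log2 fold changes between -0.02 and 0.29, and none had an unadjusted p under 0.05. On the opposite strand a transcript shares 344 bases of exon with Efna3 and another shares 168 bases with Efna4. Reads over both genes of such a pair count as ambiguous and were left out. Because Efna5 held most of the reads, the summed A-type ephrins followed it, at 488, 384 and 340 CPM in Rest_het and 289, 258 and 284 CPM in WT.

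The B-type ephrins span the membrane and can signal back into the cell that carries them. Efnb2, found on vessels and on neurons, was among the most abundant members at 409, 442 and 428 CPM in Rest_het and 512, 483 and 463 CPM in WT. The groups did not overlap, but the gap between the highest Rest_het and the lowest WT library was small, and the log2 fold change was -0.19 (SE 0.08, edgeR adjusted p = 0.41). Without both replicate 1 libraries it was -0.12. Efnb1, whose X-linked gene is mutated in human craniofrontonasal syndrome, measured 67.8, 79.1 and 72.4 CPM in Rest_het and 54.9, 59.4 and 69.8 CPM in WT, and the groups overlapped. Its log2 fold change was 0.25 (edgeR adjusted p = 0.43), on the opposite side of 0 from that of Efnb2.

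Semaphorins made up the largest family, with 19 of 20 tested. They had a median log2 fold change of 0.03, with 10 above and 9 below 0. Sema6a, a transmembrane semaphorin that binds A-type plexins and acts in thalamocortical and corticospinal tracts, measured 29.1, 29.7 and 27.4 CPM in Rest_het and 21.6, 23.4 and 21.3 CPM in WT. The libraries of each group lay close together and did not overlap. The log2 fold change was 0.38 (SE 0.09, edgeR adjusted p = 0.32), and it stayed between 0.35 and 0.42 when any single library was left out. Sema3f, a secreted ligand of neuropilin-2, was scarce at 3.08, 2.66 and 2.34 CPM in Rest_het and 1.34, 2.11 and 1.49 CPM in WT. Its groups did not overlap, with a log2 fold change of 0.71 (SE 0.27, edgeR adjusted p = 0.40). Without both replicate 1 libraries that value was 0.47. Sema4b, the semaphorin with the highest level per length, measured 90.5 to 109 CPM in Rest_het and 89.2 to 105 CPM in WT. Its log2 fold change was within 0.01 of 0, with an interval of the fold from 0.870 to 1.15, and 0.077 without both replicate 1 libraries. Sema3a, the secreted repellent that signals through neuropilin-1 and A-type plexins, was outside the naming rule and is given because of its known role: it measured 64.3, 80.2 and 86.7 CPM in Rest_het and 119, 74.0 and 102 CPM in WT, and the groups overlapped.

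Slits were scarce in the neocortex at this age. Slit2, a secreted repellent, measured 7.51, 7.15 and 6.96 CPM in Rest_het and 4.87, 3.16 and 6.03 CPM in WT. The Rest_het values were tightly spaced and above all WT values, of which replicate 2 was the lowest. The log2 fold change was 0.62 (SE 0.23, edgeR adjusted p = 0.40), and without WT replicate 2 it was 0.40. Slit1, the Slit with the highest level per length, measured 3.08, 3.27 and 2.66 CPM in Rest_het and 1.39, 1.85 and 2.83 CPM in WT. Its groups overlapped through WT replicate 3, with a log2 fold change of 0.57 (adjusted p = 0.48 by edgeR). That value was 0.36 when WT replicate 1 was left out, 0.89 when WT replicate 3 was, and 0.34 without both replicate 1 libraries. Slit3 was below the filter.

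Among the netrins, Ntn4, a laminin-binding netrin of basement membranes that promotes branching of thalamocortical axons, measured 23.4, 21.4 and 21.1 CPM in Rest_het and 27.8, 27.1 and 24.3 CPM in WT. The groups did not overlap, and the log2 fold change was -0.27 (SE 0.10, edgeR adjusted p = 0.39). Netrin-1 (Ntn1), the classical attractant, was far scarcer per length, with 0.151 CPM per kb over all libraries against 6.46 CPM per kb for Ntn4. It averaged 1.18 CPM in Rest_het and 0.709 CPM in WT with overlapping groups. Ntn5 was below the filter.

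Turning to receptors, 4 of 9 EphA genes were tested. Epha4, which binds ephrins of both types and acts in the corticospinal tract, had the highest level per length and measured 155, 151 and 183 CPM in Rest_het and 152, 151 and 135 CPM in WT. The groups overlapped, with a log2 fold change of 0.16 (adjusted p = 0.55 by edgeR) that was 0.07 without Rest_het replicate 3 and 0.10 without WT replicate 3. Epha3 measured 46.4, 46.4 and 57.2 CPM in Rest_het and 63.5, 65.5 and 56.1 CPM in WT. Its groups overlapped because Rest_het replicate 3 stood above WT replicate 3, and the log2 fold change was -0.30 (SE 0.11, edgeR adjusted p = 0.39). Epha5 and Epha7, both receptors of ephrin-A5 in the forebrain, had log2 fold changes of -0.05 and -0.21. With single libraries left out Epha5 ran from -0.13 to 0.04 and Epha7 from -0.30 to -0.11, and Epha7 was -0.08 without both replicate 1 libraries. None of these receptors measured as far above WT as Efna5. The normal interval of the fold, narrower than the test implies, ended at 1.28 for Epha4, 1.12 for Epha5, 1.02 for Epha7 and 0.944 for Epha3. The 5 EphA genes below the filter had 17 reads at most in any library.

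All 5 EphB genes were tested. Ephb3, a receptor of B-type ephrins in the corpus callosum, measured 3.03, 2.60 and 2.12 CPM in Rest_het and 1.58, 1.05 and 1.80 CPM in WT. The groups did not overlap, and the log2 fold change was 0.80 (SE 0.29, edgeR adjusted p = 0.38). Ephb4, the venous receptor of ephrin-B2, measured 3.35, 2.22 and 3.03 CPM in Rest_het and 2.15, 1.69 and 2.01 CPM in WT, also without overlap, with a log2 fold change of 0.55 (adjusted p = 0.44 by edgeR). Ephb4 was named after its values were seen, because its gene lies in a stretch described with the gene positions. Ephb1, the EphB receptor with the highest level per length, measured 28.8, 23.0 and 22.7 CPM in Rest_het and 19.4, 27.0 and 24.5 CPM in WT. Those groups overlapped, and its log2 fold change of 0.07 turned to -0.17 without both replicate 1 libraries. Opposite-strand transcripts share exon sequence with Ephb1 and Ephb4.

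The neuropilins bind class 3 semaphorins and pair with plexins. Nrp2, the main receptor of Sema3f, measured 20.5, 26.0 and 12.4 CPM in Rest_het and 11.1, 7.07 and 11.6 CPM in WT. The groups did not overlap, although Rest_het replicate 3 was within 1 CPM of the highest WT library. The log2 fold change of 0.98 (SE 0.29, edgeR adjusted p = 0.35) was the largest of any tested member, and leaving out single libraries moved it between 0.73 and 1.23. Nrp1, the receptor of Sema3a, measured 193, 133 and 170 CPM in Rest_het and 158, 172 and 157 CPM in WT. Its groups overlapped, with a log2 fold change of 0.03 that turned to -0.10 without Rest_het replicate 1 and to -0.12 without both replicate 1 libraries.

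Plexins carry the semaphorin signal into the cell through a GTPase-activating domain, and 8 of 9 were tested. Plxna4, a partner of neuropilin-1 and a direct receptor of Sema6a, measured 82.5, 74.9 and 92.0 CPM in Rest_het and 113, 104 and 103 CPM in WT. The groups did not overlap, and the log2 fold change was -0.36 (SE 0.10, edgeR adjusted p = 0.33). Plxna2, which also binds Sema6a, measured 72.0, 60.8 and 75.2 CPM in Rest_het and 81.9, 89.2 and 81.3 CPM in WT, without overlap, with a log2 fold change of -0.28 (SE 0.10, edgeR adjusted p = 0.38). Their ligand Sema6a measured on the opposite side of 0. The other tested plexins had log2 fold changes between -0.16 and 0.36, none with an unadjusted p under 0.05. An antisense transcript shares 110 bases of exon with Plxna4 on the opposite strand.

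**Figure D3:**
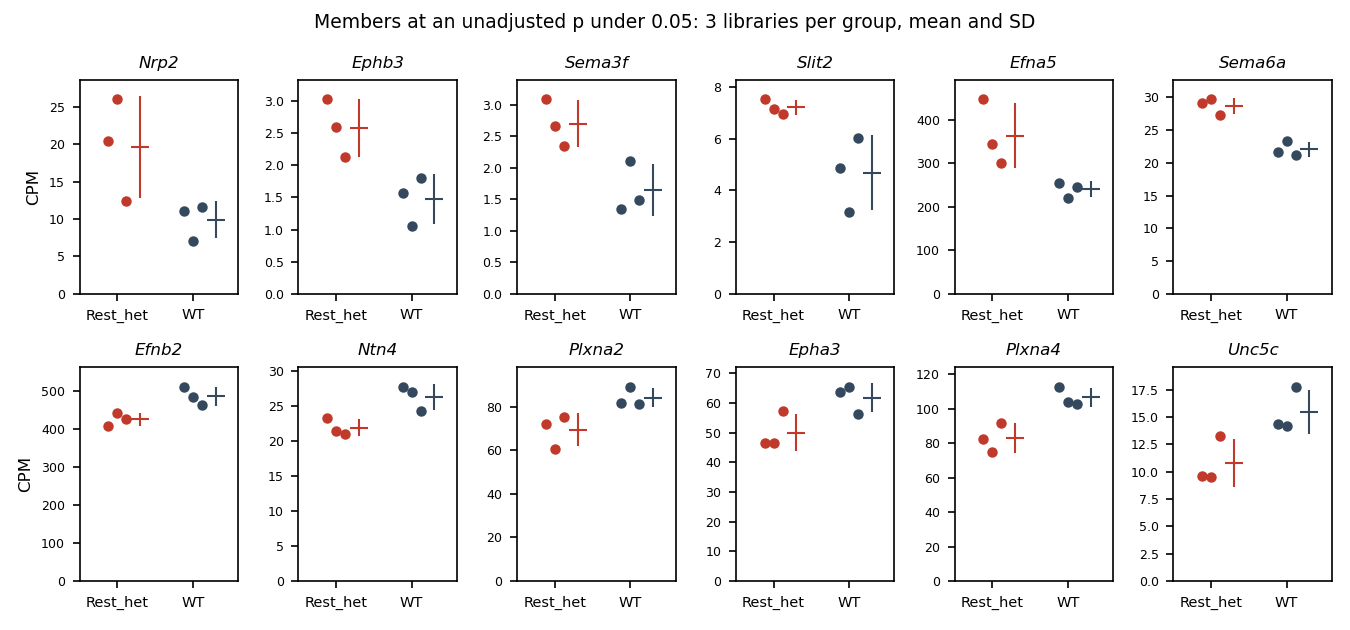
Values of the 12 members with an unadjusted edgeR p under 0.05, in CPM (vertical axes start at 0), with 1 point per library and the mean and SD of 3 beside them, Rest_het on the left and WT on the right. The groups are separate in 11 of the panels and overlap for Epha3. The panels were picked by that p in these same libraries, which favours separate groups. Of all genes tested, 19.3% had separate groups.

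Among the receptors of netrins, Unc5c, a repulsive netrin receptor, measured 9.57, 9.53 and 13.3 CPM in Rest_het and 14.4, 14.2 and 17.8 CPM in WT. The groups did not overlap, and the log2 fold change was -0.52 (SE 0.17, edgeR adjusted p = 0.36). Unc5c and Gm15688 share 118 bases of exon on opposite strands, and reads over both count as ambiguous and were left out. Unc5d, a receptor of FLRT2 and netrins that marks neurons on their way to the upper layers, had the highest level per length of this group and measured 54.3, 45.7 and 70.4 CPM in Rest_het and 78.6, 69.8 and 62.6 CPM in WT. Its groups overlapped, with a log2 fold change of -0.31 (adjusted p = 0.48 by edgeR). It was -0.17 without Rest_het replicate 2, -0.49 without Rest_het replicate 3 and -0.19 without both replicate 1 libraries. Dcc, the receptor for attraction by netrin-1, averaged 11.1 CPM in Rest_het and 10.8 CPM in WT, a log2 fold change of 0.05 that ran from -0.04 to 0.15 with single libraries left out and was 0.00051 without both replicate 1 libraries.

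The Robo family was set apart by the spread of Robo1 between libraries of the same genotype. Robo1, a Slit receptor on cortical axons and migrating neurons, measured 184, 50.5 and 55.0 CPM in Rest_het and 201, 171 and 53.5 CPM in WT. Libraries thus fell near 50 or near 180 CPM in both genotypes, with 1 Rest_het and 2 WT libraries high. The log2 fold change was -0.55 with an SE of 0.59 (edgeR adjusted p = 0.74), and leaving out single libraries moved it from -1.43, without Rest_het replicate 1, to -0.21, without WT replicate 1, and it was -1.08 without both. The highest library was 3.97-fold the lowest. Of 6013 tested genes with a mean of at least 20 CPM, 1.20% reached such a ratio, and their median was 1.28. The other 25 members at that level had ratios from 1.22 to 2.02. Robo2, the neighbouring Slit receptor gene on chromosome 16, measured 67.2, 57.7 and 81.3 CPM in Rest_het and 76.1, 73.6 and 74.7 CPM in WT, with a log2 fold change of -0.12 (adjusted p = 0.72 by edgeR) that was -0.01 without Rest_het replicate 2 and -0.25 without Rest_het replicate 3. It did not show the split of Robo1. The 11 genes within 5 Mb of Robo1 with a mean of at least 5 CPM, Robo2 included, had ratios of the highest to the lowest library from 1.30 to 2.64. Robo4, the endothelial member, had a log2 fold change of -0.01 that ran from -0.27 to 0.23 with single libraries left out and was 0.30 without both replicate 1 libraries.

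**Figure D4:**
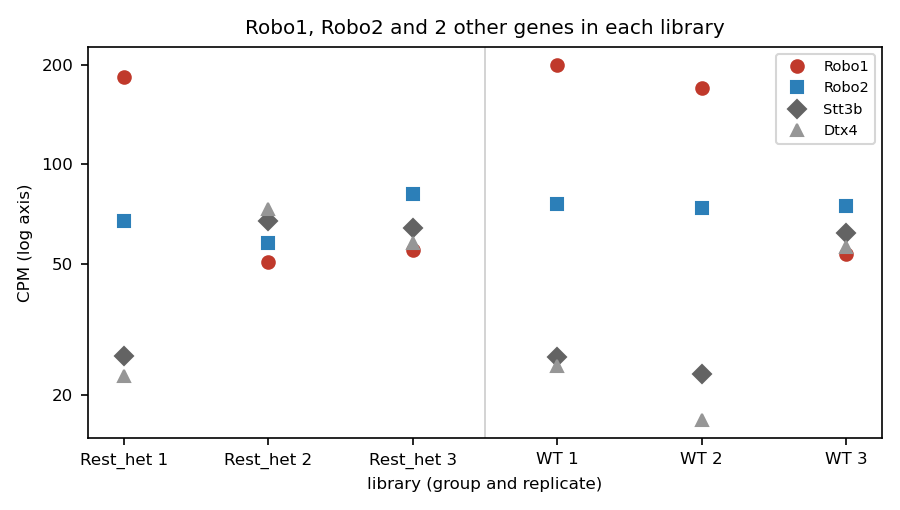
CPM (vertical axis, log scale) of Robo1, Robo2, Stt3b and Dtx4 in each library, Rest_het on the left and WT on the right. Robo1 is near 50 CPM in Rest_het replicates 2 and 3 and WT replicate 3 and above 170 CPM in the others, while Stt3b and Dtx4 are high where Robo1 is low and Robo2 varies little.

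Markers of other tissues and cell types differed between these libraries, and their part in the member values was not tested. In bulk tissue fewer cells of a type and less RNA per cell cannot be told apart. The 9 neocortex markers were all present and summed to 1568 to 1718 CPM in Rest_het and 1717 to 2014 CPM in WT. At an unadjusted p under 0.05, 1 of these markers measured higher and 1 lower, against 6.98% and 4.72% of all genes. Their log2 fold change lay below 0 in 8 of 9, with a median of -0.16, beside 50.9% of all genes above 0. Of 7 tested thalamus markers 4 measured higher in Rest_het at an unadjusted p under 0.05 (Lhx9, Prox1, Barhl2 and Calb2), against 6.98% of all genes. The median log2 fold change over the 7 was 0.77. However, the summed list overlapped, at 183 to 302 CPM in Rest_het and 189 to 272 CPM in WT. Gbx2, a defining gene of the thalamus, had no read in WT and 0.27 CPM at most in Rest_het. The hem and choroid plexus list summed to 9.75 to 378 CPM in Rest_het and 4.64 to 60.8 CPM in WT, mostly through Ttr. At an unadjusted p under 0.05, 2 of its 7 tested genes measured higher, against the same 6.98% of all genes. Ventral telencephalon markers summed to 266 to 571 CPM in Rest_het, with replicate 2 the highest, and 213 to 374 CPM in WT. Of the 12 tested, 10 had a log2 fold change above 0, against 50.9% of all genes, with a median of 0.40. By library these ventral sums were 266, 571 and 312 CPM in Rest_het and 340, 213 and 374 CPM in WT. Nrp2 measured 20.5, 26.0 and 12.4 CPM in Rest_het and 11.1, 7.07 and 11.6 CPM in WT. A link between the ventral sums and Nrp2 was not tested. Mural markers summed to 229 to 1460 CPM in Rest_het and 169 to 246 CPM in WT. That range came from Rgs5, at 1432, 1161 and 196 CPM in Rest_het and 216, 152 and 181 CPM in WT, while the other 5 mural markers had log2 fold changes from -0.22 to 0.36. Endothelial markers summed to 105 to 163 CPM in Rest_het and 91.2 to 172 CPM in WT, and meningeal markers to 176 to 503 CPM in Rest_het and 174 to 472 CPM in WT. Microglial markers summed to 45.6 to 57.4 CPM in Rest_het and 42.7 to 56.4 CPM in WT, oligodendrocyte lineage markers to 26.2 to 33.9 CPM in Rest_het and 19.4 to 30.1 CPM in WT, and erythroid markers to 317 to 646 CPM in Rest_het and 517 to 655 CPM in WT. No gene of these lists was at 0 in every library, and no list gene passed the edgeR test at an adjusted p under 0.05.

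**Figure D5:**
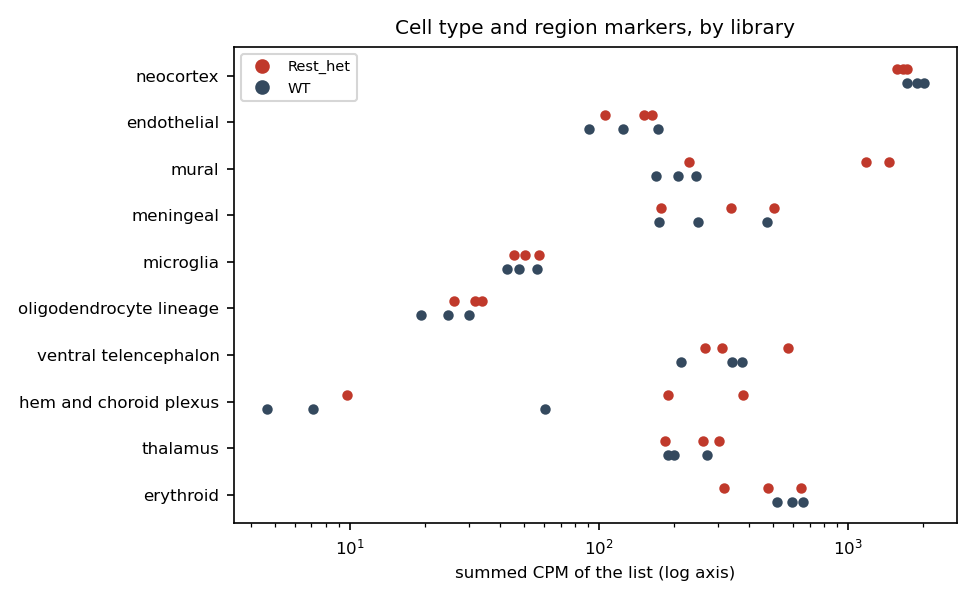
Summed CPM of 10 fixed marker lists (horizontal axis, log scale), with 1 point per library, Rest_het above WT in each row. The neocortex sums lie between 1568 and 2014 CPM, and the hem and choroid plexus sums spread widest, from 4.64 to 378 CPM.

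Partners of these receptors were read from a list of co-receptors and other cues and a list of cytoplasmic effectors, and the genes named are the 4 of each with the smallest p. Among 22 co-receptors and other guidance cues, all tested, 0 passed at an edgeR adjusted p under 0.05. At an unadjusted p under 0.05, 1 measured higher and 2 lower, against 6.98% and 4.72% of all genes. Flrt3, an adhesion protein that binds Robo1 and Unc5 receptors, measured 69.7, 67.7 and 83.1 CPM in Rest_het and 95.3, 103 and 81.3 CPM in WT, and the groups overlapped (log2 fold change -0.35, edgeR adjusted p = 0.37). Flrt2, a ligand of Unc5d, had a log2 fold change of -0.32 and Dscam, a co-receptor for netrin, one of -0.32, whereas Rgma, a repellent that acts through neogenin, had one of 0.63. Without WT replicate 1 these values were -0.20, -0.16 and 0.44, and without both replicate 1 libraries -0.21, -0.16 and 0.27. Among 59 cytoplasmic effectors, all tested, 0 passed, and 5 measured higher and 2 lower at an unadjusted p, against the same 6.98% and 4.72% of all genes. Limk1, the kinase that inactivates cofilin downstream of semaphorin receptors, measured 18.6, 15.6 and 12.0 CPM in Rest_het and 3.87, 5.54 and 7.36 CPM in WT. Its groups were far apart, with a log2 fold change of 1.46 (SE 0.25, edgeR adjusted p = 0.17). DESeq2 called it with an adjusted p of 1.86e-05 and edgeR with no filter with 0.0011, and over all alternatives the adjusted p ranged up to 0.46. Vasp, an actin regulator, had a log2 fold change of 0.73, the kinase gene Abl1 one of 0.45 and the kinase gene Cdk5 one of 0.26. The value of Abl1 was 0.23 without both replicate 1 libraries. The median log2 fold change was 0.03 over the cues and 0.02 over the effectors, beside 0.01 over all genes.

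Gene positions were set against the 19 called genes, which lay on chromosomes 1, 5 and 8 alone. Rest lies on chromosome 5, and 14 members lie on these chromosomes. On chromosome 1 the 9 called genes spanned positions 68115195 to 127679548, a stretch that holds Epha4. On chromosome 5 the 6 called genes spanned 107106570 to 138107822, a stretch that holds Ephb4 and also Limk1. On chromosome 8 the 4 called genes spanned 84856989 to 102865798, with no member inside. The nearest member to Rest was Epha5, 6.77 Mb away, with a log2 fold change of -0.05 (adjusted p = 0.88 by edgeR). Of the 12 members with an unadjusted p under 0.05, none lay inside those stretches, although Nrp2 (chr1:62703285-62818695) and Plxna2 (chr1:194618218-194816869) lie on the same chromosome as the first stretch, Slit2 (chr5:47983138-48307733) as the second and Efnb2 (chr8:8617434-8661242) as the third. Efna5 lies at chr17:62604184-62881317, Plxna4 at chr6:32144268-32588192 and Robo1 at chr16:72308306-73046095, all in GRCm38.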

How the data were processed

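RNA from the neocortex of 3 Rest_het and 3 WT embryos was sequenced. Per the labels' protocols, oligo dT priming, template switching, PCR and tagmentation made the libraries, which mark neither strand nor single molecules. The deposited files list read counts for each gene. Per the submitters' processing notes the authors used STAR 2.5.2a and the build GRCm38.p4. The unstranded column was taken, since 49.9 to 50.1% of reads fell on the forward strand. Read pairs assigned to no gene were left out of the totals, and made up 21.4 to 26.9% (outside genes), 6.29 to 7.48% (several map positions), 2.54 to 2.85% (ambiguous) and 1.21 to 1.45% (unmapped) of all pairs. The deposited table of normalized signal, for which the submitters' processing notes name DESeq2, equalled the counts divided by 1 size factor per library (relative tolerance 1e-06). It entered 1 alternative.

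The quasi-likelihood test of edgeR 4.0.16, run in R 4.3.3 with genotype as the term and TMM factors, was applied to the counts of genes passing filterByExpr (count minimum 10, total 15), with Benjamini-Hochberg adjustment over all of them. SE is the size of the log2 fold change over the root of F, and 95% intervals are normal, which makes them narrower than the F test implies. The biological coefficient of variation was 0.183. Symbols, positions and exon lengths came from GENCODE M21 (GRCm38). Count floors cover counting error only, while intervals of folds include the spread between libraries. Alternatives were DESeq2 size factors, DESeq2 1.42.0, no filter, CPM of at least 1 in 3 libraries, limma 3.58.1 on log2 of the deposited signal plus 1, the replicate number as a block, and each library left out. An analysis without both replicate 1 libraries was chosen after seeing the data. Scripts were tested on simulated data. Plots used Python 3.11.15 and matplotlib 3.10.9.

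The members and lists were chosen with earlier results of these data known. The naming rule took members with an unadjusted p under 0.05, the member with the highest level per length and the one with the smallest p of each family, the 4 genes of each partner list with the smallest p, and Rest. It named 20 members. Sema3a, Epha5, Epha7, Dcc, Ntn1, Robo4 and Ephb4 were added after their values were seen, and the promoter motifs were chosen after the promoters were read. Over the tested genes, deviations of same-numbered libraries from their group means did not correlate above 0.1 in any pair, although both replicate 1 libraries stood apart, so the numbers were not taken as pairs.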

Additional observations from a re-analysis of the deposited data

Results flagged for a closer look

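Reads were counted on transgene sequences that the comparison of the guidance genes did not use. LacZ drew 121 reads over the 3 WT libraries (27, 51 and 43) and 0 over the 3 Rest_het libraries. Cre-ERT2 drew 43 reads over the 3 Rest_het libraries (10, 16 and 17) and 0 over the 3 WT libraries. They were singled out because a signal in sequences outside the main measurement was present in every library of one genotype and in none of the other. Neither sequence is part of a member gene, and their part in the member values was not tested.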

How the results depend on the processing

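The count of members called was 0 in the main analysis and 1 with DESeq2 and 1 with no filter (Efna5 in both), and it was 0 in every other alternative, leave-one-out included. The count of partners called was 0, and 1 with DESeq2 and 1 with no filter (Limk1 in both). Members at an unadjusted p under 0.05 numbered 12, from 6 (without Rest_het replicate 2) to 15 (without Rest_het replicate 3) with single libraries left out, and 7 without both replicate 1 libraries. The shares of all genes were 11.7%, 8.02%, 13.2% and 6.32%. Over all genes 19 were called, 131 with DESeq2, 107 with no filter, and 12 to 35 with single libraries left out (12 without WT replicate 1, 35 without WT replicate 2, 32 without Rest_het replicate 3). The cause was not tested. Among the 20 members taken by the naming rule, the log2 fold changes of 3 changed sign: Ephb1 ran from -0.05 to 0.18 and Nrp1 from -0.10 to 0.17 with single libraries left out, and they were -0.17 and -0.12 without both replicate 1 libraries. Sema4b, near 0 in the main analysis, ran from -0.080 to 0.059, and was 0.00066 with the CPM filter and 0.077 without both replicate 1 libraries. Of the members added outside that rule, Epha5, Dcc and Robo4 also changed sign with single libraries left out.

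With the replicate number as a block 0 members and 0 partners were called, and 6 genes were called over all. In that fit 9 of 58 members had an unadjusted edgeR p under 0.05 (6 higher, 3 lower), against 9.54% of all genes. The numbers were not taken as pairs: deviations of same-numbered libraries correlated at -0.01, 0.05 and -0.16, and no Rest_het library correlated best with the WT library of its number. No label gives a batch, and these values cannot show whether same-numbered libraries shared a preparation.

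Depth limited the 10 untested members. With 3 libraries a group 29 of 58 intervals of the fold reached past 1.5-fold, although normal intervals are narrower than the test implies.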

Other observations

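Other genes split the libraries as Robo1 did but in reverse, and those given here were picked after their values were seen. Stt3b, a subunit gene of the oligosaccharyltransferase on chromosome 9, measured 26.3, 67.3 and 64.2 CPM in Rest_het and 26.0, 23.2 and 61.8 CPM in WT, high where Robo1 was low. Dtx4, a ubiquitin ligase gene on chromosome 19, measured 22.8, 73.2 and 57.7 CPM in Rest_het and 24.5, 16.8 and 56.2 CPM in WT, in the same order of high and low libraries as Stt3b.

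A different split set the replicate 1 libraries of both genotypes apart from the rest. Syt4, a synaptotagmin gene, measured 3239, 459 and 361 CPM in Rest_het and 4474, 580 and 514 CPM in WT. Cramp1l measured 6.22, 193 and 163 CPM in Rest_het and 8.89, 172 and 168 CPM in WT. H2-D1, a class I histocompatibility gene, measured 8.16, 32.5 and 27.6 CPM in Rest_het and 5.64, 22.1 and 24.4 CPM in WT. The member genes of at least 20 CPM other than Robo1 had ratios of the highest to the lowest library of 2.02 at most.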
